A study of Mus musculus with 4 samples.

Results

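RNA other than miRNA was compared between extracellular vesicles and the cells that released them, in the pair of small RNA libraries labelled shDis3l2. The cells were RAW264.7, an established mouse line with macrophage features that was derived from a tumour induced by Abelson murine leukaemia virus. Of 52340 non-miRNA genes and tRNAs in the deposited count table, 35325 had a count in this pair and 7181 reached 100 counts over the pair of libraries, which is the set described here. Of these 7181, 6004 were annotated as protein-coding, 151 were tRNA genes and 1026 were genes of other types. These 1026 are called noncoding below, although Trbv20, a T cell receptor variable segment, is among them.

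Each of the 4 libraries of the series was a group of its own: cells or vesicles, each labelled either shDis3l2 (a short hairpin RNA against Dis3l2) or shNS (a non-silencing hairpin). Both lines were kept with 1 µg/mL doxycycline for 3 days in 15 flasks and then changed to medium with doxycycline and 10% serum that had been cleared of vesicles. Medium was collected after 24 h, its vesicles were banded on a sucrose gradient, and the cells went into Trizol. The labels give a digestion with micrococcal nuclease (20 U, 30 min) for the vesicles. Libraries came from a miRNA kit (QIAseq) read for 50 nt, so counts on long RNAs are counts of short fragments. The sources used here do not say whether either line was 1 clone.

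The cell library held 18416554 counts and the vesicle library 17612856, of which 7143220 and 15758568 were not on miRNA hairpins. There was no replicate on either side, so no difference had a replicate check and no p-value was computed for the pair. Values are CPM, counts scaled to the total of all features of a library, and ratios are log2 of vesicle CPM over cell CPM with 0.5 added to each count, and brackets or ranges after a ratio are exact 95% intervals that cover counting error only. A gene is called higher or lower where the ratio was at least 2-fold and the interval excluded 1. Where 1 of the libraries had no count, the fold is a bound, computed as if that library had 3 counts. The shNS pair, which shares no library with this one, is given beside it as a second pair and not as a replicate.

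Dis3l2 itself went against the label in cells: cells labelled shDis3l2 gave 13232 counts and cells labelled shNS 41, while the vesicles gave 1894 and 1713. Every statement below therefore concerns the libraries labelled shDis3l2, and no direction is drawn for a knockdown. Of the counts in those cells, 13208 lay on 1 of the gene's transcripts, of the nonsense-mediated decay type (Dis3l2, chr1:86703808-87050095, GRCm38). Macrophage markers were present: 20 of 22 had a count, and their summed level was 59.3 CPM in cells and 502 CPM in vesicles. C1qa and C1qb, which encode complement components, were at 0 in both libraries. Summed markers of other cell types stood at 0.751 to 8.69 CPM in cells. In vesicles the epithelial sum was 1.64 CPM, the fibroblast and endothelial sum 8.81 CPM, and the erythroid and platelet sum 11 CPM. The lymphocyte sum of 192 CPM was nearly all Gzma, and the neural sum of 179 CPM was mostly Map2 with 2599 counts; the defining lymphocyte genes Cd79a, Cd79b and Nkg7 were at 0 in both libraries. The part of other cells or of serum in these values was not tested.

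Cells release RNA in membrane vesicles that bud from endosomes or from the plasma membrane, and cytosolic RNA can enter both kinds. Small structured RNAs made by RNA polymerase III (tRNA, Y RNA, 7SL RNA, vault RNA) stay in or pass through the cytosol, whereas small nucleolar RNAs (snoRNAs) guide the modification of ribosomal RNA in the nucleolus. Mitochondrial transcripts are made and kept inside mitochondria. DIS3L2, the enzyme named by the hairpin, is a 3′ to 5′ exonuclease of the cytosol that degrades RNAs with an added tail of uridines, structured noncoding RNAs among them.

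The following 6 RNAs are shown as examples of the classes described below: Y RNAs that were higher in vesicles on the CPM scale but below the median of protein-coding genes, and a minor spliceosomal RNA, nucleolar RNAs and a mitochondrial tRNA that were lower. Sequences are those of the GENCODE M21 transcripts (GRCm38), written 5′ to 3′ as DNA. Capitals mark the terminal T run in Rny1 (chr6:47788069-47788180, minus strand) and Rny3 (chr6:47781624-47781725, plus strand). They mark the Sm-site-like ATTTTTG in Rnu12 (chr15:83149644-83149794, plus strand), and the letters TGATGA and CTGA of boxes C and D in Snord37 (chr10:81178950-81179013, plus strand) and Snord14c (chr9:40803583-40803668, plus strand). In mt-Tm (chrM:3845-3913, plus strand), the mitochondrial tRNA for methionine, nothing is marked.
Rny1: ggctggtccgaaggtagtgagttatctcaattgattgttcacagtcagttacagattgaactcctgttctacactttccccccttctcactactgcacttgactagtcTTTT
Rny3: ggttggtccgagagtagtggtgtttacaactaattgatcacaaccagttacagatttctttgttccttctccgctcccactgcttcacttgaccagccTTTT
Rnu12: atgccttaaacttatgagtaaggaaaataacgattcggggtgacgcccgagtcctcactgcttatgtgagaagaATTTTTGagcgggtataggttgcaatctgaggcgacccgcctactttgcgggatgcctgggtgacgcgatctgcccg
Snord37: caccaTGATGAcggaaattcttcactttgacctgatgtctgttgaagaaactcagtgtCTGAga
Snord14c: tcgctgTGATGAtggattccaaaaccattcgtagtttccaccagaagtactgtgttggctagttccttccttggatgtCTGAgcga
mt-Tm: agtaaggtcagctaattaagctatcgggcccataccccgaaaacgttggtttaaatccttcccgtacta

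The vesicle library was made of other classes than the cell library. tRNA took 5.18% of counts in cells and 35.4% in vesicles (954047 and 6238835 counts), and protein-coding genes took 8.92% and 26.0%. In the opposite direction, snoRNA with the related Cajal-body RNA (scaRNA) took 11.1% of counts in cells and 0.272% in vesicles (2049505 and 47890). Mitochondrial tRNA took 2.01% and 0.0221%, and mitochondrial rRNA 1.01% and 0.0170%. The exact binomial intervals of these shares, which cover counting error only, did not overlap between the 2 libraries. The shNS pair had the same order, with snoRNA at 8.70% and 0.436% and tRNA at 4.04% and 38.5%. miRNA hairpins held 61.2% of the cell counts and 10.5% of the vesicle counts, so any other RNA takes a larger share of the vesicle library on this scale even where its amount relative to other non-miRNA is equal.

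**Figure D1:**
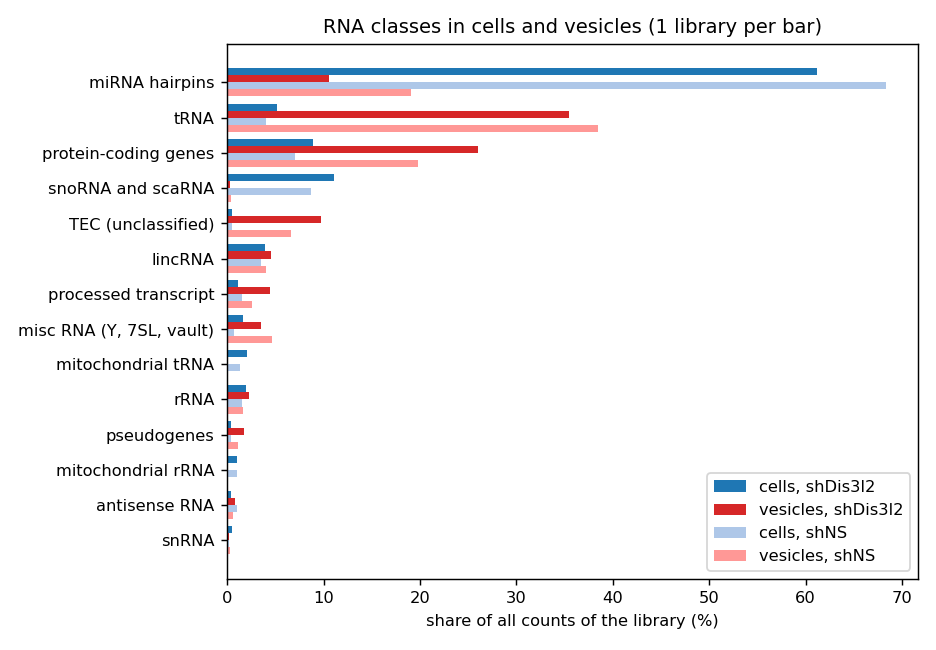
Share of all counts (x axis, %) taken by each RNA class in the 4 libraries, 1 bar per library and no error bars because each group is 1 library. In the shDis3l2 pair, tRNA goes from 5.18% in cells to 35.4% in vesicles and snoRNA from 11.1% to 0.272%.

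The ratios of single genes rest on which scale is chosen. Of the 7181 genes, 5650 (78.7%) were called higher in vesicles and 810 (11.3%) lower, and among the 6004 protein-coding genes 5038 (83.9%) were called higher and 367 (6.11%) lower. The median log2 ratio of the protein-coding genes was 2.50 rather than 0. Leaving miRNA out of the total lowered every ratio by 1.21, and edgeR TMM factors lowered it by 2.37, after which the protein-coding median was 0.12. Members are therefore also read against 2.50, called the mRNA median below: 1257 protein-coding genes (20.9%) lay at least 2-fold above it and 1379 (23%) at least 2-fold below it, with 1647 (22.9%) and 1977 (27.5%) of all 7181 genes. An additive edgeR quasi-likelihood fit of compartment and hairpin label over all 4 libraries, with TMM factors and 1 residual degree of freedom, called 1413 genes (19.7%) higher and 1620 (22.6%) lower at a Benjamini-Hochberg adjusted p under 0.05. Among protein-coding genes these counts were 1057 (17.6%) and 1073 (17.9%). A ratio or median printed below as positive turns negative under TMM or DESeq2 factors where it is smaller than the shift of that scale.

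The count minimum also shaped the protein-coding result. Vesicles held 4820 protein-coding genes with at least 100 counts and cells 962. Of the 6004 protein-coding genes, 4099 reached 100 counts in vesicles but not in cells and 4022 of those were called higher, a direction that this selection favours. Among the 962 protein-coding genes with at least 100 counts in cells, which is a selection on the cell side, 384 (39.9%) were called higher and 317 (33.0%) lower, with a median of 0.22. With the 953 genes chosen by 100 counts in the shNS cells, a library outside this pair, 369 were higher and 316 lower, with a median of 0.13. In the 721 genes that reached 100 counts in each library, 384 were higher and 111 lower, and the median was 1.15. Counts of protein-coding genes were less concentrated in vesicles: the 10 most abundant held 44.9% of such counts in cells and 11% in vesicles. Those of the cells include Mcm7 and 2010111I01Rik, which hold a small RNA gene in an exon. Genes other than protein-coding, tRNA and miRNA went the other way, with 47.2% in cells and 63.2% in vesicles. The number of protein-coding genes with any count was close, 17939 in cells and 18258 in vesicles, from 1643351 and 4575469 counts.

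**Figure D2:**
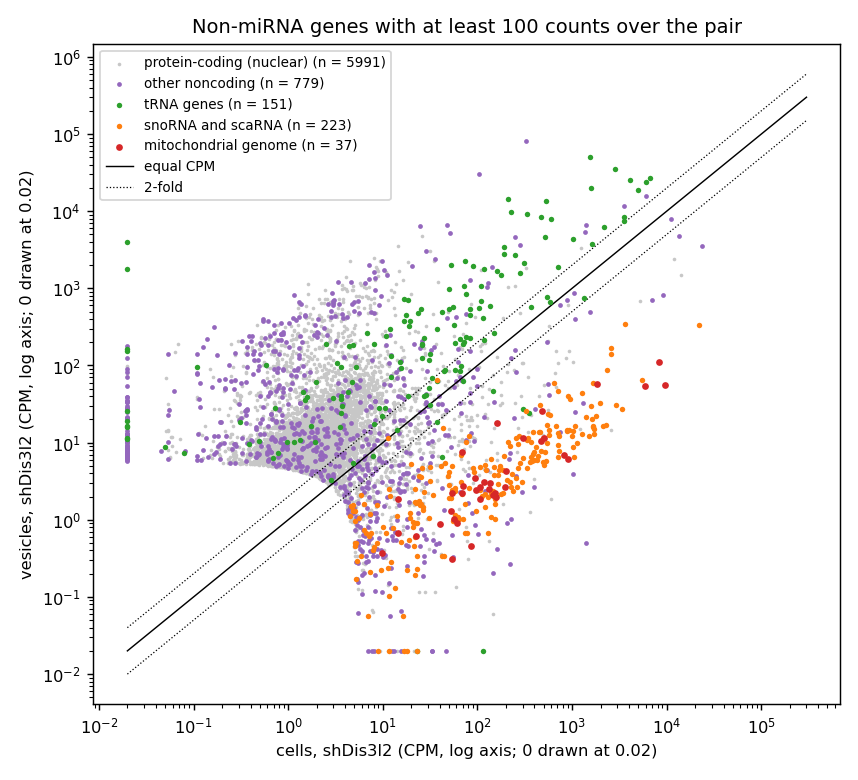
Level in vesicles (y axis) against level in cells (x axis), both in CPM on log axes, for the 7181 non-miRNA genes with at least 100 counts over the pair; a point is a gene, colours are RNA classes, the solid line is equal CPM and dotted lines are 2-fold. The 223 snoRNA and scaRNA genes and the 37 mitochondrial genes lie below the line except Snora17 (0.82) and Gm23123 (0.04), both within 2-fold, and the empty lower left corner is the count minimum.

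Nucleolar guide RNAs were lower in vesicles than in cells almost without exception. All 73 box C/D snoRNAs with a Snord symbol and at least 100 counts were called lower, with ratios from -9.66 to -2.52 and a median of -5.76. Of 25 box H/ACA snoRNAs with a Snora symbol 24 were lower (median -3.43), as were all 13 scaRNAs (median -3.74). Over all 210 snoRNA genes, 208 were lower and none higher, against a background of 11.3% lower among all non-miRNA genes. In the shNS pair 183 of 192 were lower and 2 higher, and the median was -3.93 against -5.39 for the snoRNAs measured in both pairs. Across the 223 snoRNA and scaRNA genes, longer RNAs had less negative ratios (Spearman's rho 0.57 across genes of 1 pair of libraries, which are not independent replicates). That value pools classes whose medians differ, and the relation within a class was not tested.

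Snord37 (sequence above), a box C/D guide from an intron of the translation factor gene Eef2, had 54042 counts in cells and 536 in vesicles, a ratio of -6.59 (-6.72 to -6.47), and 57768 and 675 in the shNS pair (-6.30). Snord98 had 19076 and 115 counts (-7.30, and -7.09 in the shNS pair). The most abundant snoRNA of the cells, Gm23212 (chr1:161036682-161036741, plus strand), had 406662 counts in cells and 5847 in vesicles (-6.06, and -6.10 in the shNS pair). These 3 were as far apart under either label. Snord14c (sequence above) was less alike: 48013 and 2989 counts here (-3.94) but 11224 and 4519 in the shNS pair (-1.19). TGATGA within the first 20 nt together with CTGA within the last 15 nt was searched on the transcript strand. Both occurred in 46 of the 73 tested Snord RNAs (63.0%) and in none of 25 tested Snora RNAs. Among all snoRNAs both occurred in 42.4% of the 210 tested and in 13.4% of the 1364 transcripts in the table. Snord RNAs with both motifs had a median of -5.43 and the other 27 a median of -5.96. Over all 210 tested snoRNAs the order was the opposite, with medians of -5.72 with both motifs and -4.60 without.

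Every one of the 37 genes of the mitochondrial genome was called lower in vesicles, in this pair and in the shNS pair, with medians of -5.45 and -5.06. Among all non-miRNA genes 11.3% were called lower in this pair. The tRNA mt-Tm (sequence above) had 177199 counts in cells and 978 in vesicles, a ratio of -7.44 (-7.53 to -7.35) or 173-fold. The 16S rRNA mt-Rnr2 had 151905 and 1973 counts (-6.20) and the 12S rRNA mt-Rnr1 33741 and 1022 (-4.98). The 13 mitochondrial mRNAs ranged from -7.46 for mt-Nd4l, a complex I subunit with 1567 and 8 counts, to -4.36, and mt-Co1, a cytochrome oxidase subunit, had 5584 and 201 counts (-4.73). The summed level of the 15 mitochondrial rRNAs and mRNAs was 11387 CPM in cells and 204 CPM in vesicles. Mitochondrial RNA and snoRNA thus overlap in their ratios, although one is made in mitochondria and the other in the nucleus.

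The structured RNAs fell into higher and lower members. Of 15 tested members of the list of RNA polymerase III and ribonucleoprotein RNAs, 6 were called higher and 7 lower (median -0.14). In the shNS pair 7 were higher and 4 lower (median 0.93). Among all non-miRNA genes of the shDis3l2 pair 78.7% were higher and 11.3% lower. Rny1 and Rny3, the RNA parts of Ro particles, had 25746 and 65444 counts in cells and 116503 and 204073 in vesicles, ratios of 2.24 (2.22 to 2.26) and 1.71 (1.69 to 1.72). Both lie near or below the mRNA median, and both ratios turn negative with TMM or DESeq2 factors (for Rny3, -0.67 and -0.72). Vaultrc5, the vault RNA, had 5142 and 63980 counts (3.70) and Rn7s1, a 7SL RNA of the signal recognition particle, had 4578 and 82682 (4.24). Rpph1, the RNA of the tRNA-processing enzyme RNase P, had 218 counts in cells and 4427 in vesicles (4.41, 4.21 to 4.61). These last 3 stood above the mRNA median, and edgeR's quasi-likelihood fit with Benjamini-Hochberg adjustment gave adjusted p of 0.044 for Vaultrc5, 0.059 for Rn7s1 and 0.041 for Rpph1. 7SL and Y RNAs have many near-identical pseudogene copies, so how reads were split among them is uncertain.

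The 7 members of the list called lower in this pair were spliceosomal, histone-processing or nucleolar RNAs. Rnu12, the U12 RNA of the minor spliceosome (sequence above), had 13773 counts in cells and 245 in vesicles, a ratio of -5.75 (-5.94 to -5.57) or 53.7-fold. In the shNS pair it had 1670 and 429 counts (-1.84), so the cell libraries differed more than the vesicle libraries. The U3 snoRNAs Rnu3b1 (-4.21) and Rnu3a (-4.54) and the snoRNA Rnu73b (-5.55) were lower in both pairs. U1 (Rnu1a1, 19937 and 7065 counts, -1.43) and the histone-processing U7 (Rnu7, 10053 and 3603, -1.42) were lower here and at 0.33 and 0.55 in the shNS pair. U11 (Rnu11) had 1208 and 571 counts (-1.02, -1.16 to -0.87) here and 253 and 744 (1.67) under shNS. U5 (Rnu5g, -0.14) and Rmrp (0.87), the RNA of RNase MRP, were within 2-fold. Rn7sk, the inhibitor RNA of the elongation factor P-TEFb, had 1159 and 2865 counts (1.37), which is below the mRNA median. Over the 31 tested snRNA genes, 11 were higher and 9 lower with a median of -0.16 (background 78.7% and 11.3%). In the shNS pair 16 were higher and 2 lower, with a median of 1.03. ATTTTTG, searched on the transcript strand, occurred in 9 of these 31 (29.0%) and in 3.22% of all 1306 snRNA transcripts, many of them pseudogene copies, and the medians with and without it were -0.30 and -0.15.

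**Figure D3:**
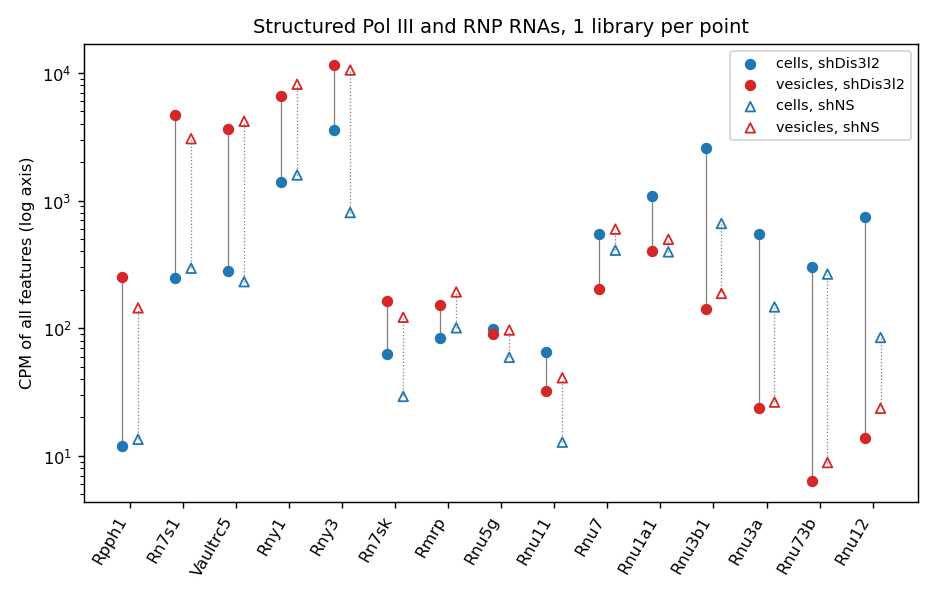
Level of the 15 tested structured RNAs (y axis, CPM of all features, log axis) in the 4 libraries, 1 point per library, with lines joining cells and vesicles of the same label. From Rpph1 (4.41) on the left to Rnu12 (-5.75) on the right the shDis3l2 ratio falls, and Rnu5g, Rnu11, Rnu7 and Rnu1a1 lie in opposite order under shNS.

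Other small noncoding RNAs gave mixed values. Gm24379, a misc RNA gene of 86 nt that shares 24 nt with Rny1, had 205277 counts in cells and 137541 in vesicles (-0.51) here, and 78782 and 374351 (2.37) in the shNS pair. The 4.5S RNA repeat had 2372 and 20690 counts (3.19) here and 3455 and 6831 (1.10) under shNS. Of the ribosomal RNAs, the 5.8S gene n-R5-8s1 had 249262 and 83137 counts (-1.52) and the rRNA gene CT010467.1, 1849 nt long, had 111059 and 273246 (1.36). All 6 tested 5S genes with an n-R5s symbol were higher, with a median of 4.99, beside 78.7% of all non-miRNA genes called higher. Copies of 5S and of the larger rRNAs are near-identical, and the split between copies is uncertain.

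tRNA fragments were higher in vesicles for most anticodons on the CPM scale. tRNA genes were summed by anticodon, since copies of 1 family are near-identical. Of 47 families with at least 100 counts, 42 were called higher, none lower and 5 were within 2-fold. Their median was 2.65 (3.01 in the shNS pair), and 24 of the 47 stood above the mRNA median. Counted singly, 123 of 151 tRNA genes were higher, 7 lower and 21 within 2-fold. That stands beside 78.7% of all non-miRNA genes called higher and 11.3% called lower. The spread between families was wide, from Pro-TGG with 25770 counts in cells and 14919 in vesicles (-0.72) to Gly-TCC with 4144 and 172072 (5.44). Ser-AGA had no count in cells and 210 in vesicles, which puts it at least 73.2-fold higher.

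Isoacceptors of 1 amino acid did not move as a block. Among glycine tRNAs, Gly-GCC went from 199019 to 625824 counts (1.72) and from 20.9% to 10.0% of tRNA counts, while Gly-TCC was at 5.44. Glu-CTC was at 3.64 and Glu-TTC at 1.33. Lys-CTT had 39526 counts in cells and 1027721 in vesicles (4.76) and Lys-TTT 110277 and 429176 (2.02). The arginine families ran from Arg-TCG (0.62) to Arg-TCT, with 7389 and 292343 counts (5.37). Initiator methionine tRNA, which reads the start codon, was within 2-fold (iMet-CAT, 10300 and 13802 counts, 0.49), whereas elongator Met-CAT was at 3.20. In the shNS pair Pro-TGG was at -0.32, iMet-CAT at 0.26, Arg-TCT at 5.91 and Gly-TCC at 5.55. Other families were less alike: Ala-AGC was at 0.86 here and 2.73 there, Cys-GCA at 1.39 and 3.26, and Pro-AGG, with few counts (148 and 309), was at 1.12 here and -2.33 there. The kit reads ligated ends, and cleaved tRNAs and modified bases can change how well a tRNA is captured. Levels of different families within a library are therefore not compared. Whether capture differed between cells and vesicles, which would alter the ratios above and their order, was not tested.

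**Figure D4:**
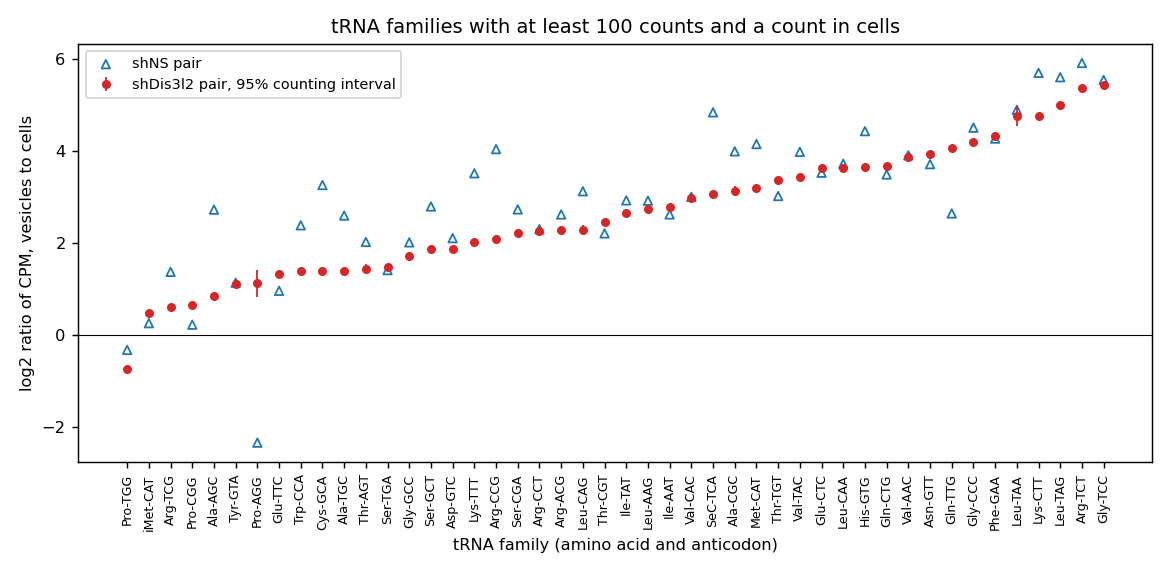
log2 ratio of vesicle to cell CPM (y axis) for the 46 tRNA families with at least 100 counts and a count in cells (x axis, ordered by ratio); filled circles are the shDis3l2 pair with exact 95% counting intervals and open triangles the shNS pair. Ratios run from -0.72 for Pro-TGG to 5.44 for Gly-TCC.

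The RNA with the most vesicle counts outside miRNA and tRNA was a family of repeated transcripts. Gm42427 (chr5:44137980-44143271, plus strand), which the annotation leaves unclassified, had 6052 counts in cells and 1419710 in vesicles, a ratio of 7.94. Of all transcripts in the table, 11 genes share a stretch of at least 100 nt with it, Gm42427 included, and together they went from 9654 to 2254514 counts, which is 244-fold (7.93, 7.90 to 7.96). They took 0.0524% of all counts in cells and 12.8% in vesicles. In the shNS pair they went from 7697 to 1512187 counts (213-fold, 7.74). The longest stretch without a stop codon was 921 codons in Gm42427, 690 in AI506816 and 592 in Gm43305. In the other members it ran from 79 codons (Gm42429) to 570 (AC158975.2). The search took any of the 3 frames and did not require a start codon. None of the 11 genes is typed as protein-coding. The next members by counts were Gm43305 (1900 and 532326 counts on its transcript), Gm4316 (874 and 117513), AI506816 (458 and 114643) and Gm46223 (188 and 30387). Gm10524 had 11 and 31 counts, and Gm37416 and Gm42429 had none. Which copies the reads came from is uncertain, since members share sequence, and no viral or repeat sequence was compared with them. The family held 83.1% of the vesicle counts of unclassified (TEC) genes. Without it that class went from 0.453% to 1.64% of counts.

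Long noncoding RNAs were spread in both directions. Their counts stand beside 78.7% of all non-miRNA genes called higher and 11.3% called lower. Among 194 lincRNA genes 128 were higher and 40 lower (median 2.95), and among 107 antisense genes 61 and 30 (median 2.18). Reads of an antisense gene and of the gene opposite cannot be told apart where counting ignored strand, a point on which the sources used here are silent. Pseudogenes were 137 higher and 26 lower of 177, a share of higher calls near that background, with a median of 6.01 (5.35 with bounds for those at 0 in 1 library); as copies of other genes their assignment is uncertain. Of 7 tested nuclear long noncoding RNAs none lay 2-fold above the mRNA median and 5 lay 2-fold below it. Malat1, a nuclear speckle RNA, had 473 counts in cells and 3257 in vesicles (2.85, 2.71 to 2.99). Neat1, the scaffold of paraspeckles, had 239 and 333 (0.54), Kcnq1ot1 545 and 380 (-0.46), and Xist, the RNA that silences an X chromosome, 260 and 17 (-3.83). Apart from Malat1 the RNAs named here were low in vesicles relative to mRNA fragments, and exons of Malat1, Neat1 and Xist hold a small RNA gene.

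Transcripts that host snoRNAs were mostly lower in this pair but not in the shNS pair. Of 18 tested hosts 12 were lower and 1 higher here (background 11.3% and 78.7%), with a median of -1.81. In the shNS pair 6 of the 18 were lower and 4 higher, with a median of 0.38. Exons of 15 of these 18 hold an annotated small RNA gene, so part of their counts can be counts of that RNA. Gas5 had 23921 and 575 counts (-5.31) and Snhg1 19871 and 438 (-5.44), close to the ratios of the snoRNAs above. Snhg18 had 12 and 196 (4.04) and was the 1 host called higher. Snhg8 had 846 and 223 (-1.86) here but 41 and 163 (2.10) in the shNS pair.

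Ribosomal protein mRNAs were also sorted by whether an exon holds a small RNA gene. The part of that overlap in their ratios was not tested. Of 80 tested, 64 were higher and 7 lower, with a median of 3.06. Among all tested protein-coding genes 83.9% were higher and 6.11% lower. The 57 whose exons hold no small RNA gene had 56 higher, none lower and a median of 3.52 (4.07 in the shNS pair). The 23 with a small RNA gene in an exon had 8 higher, 7 lower and a median of 0.05, and in the shNS pair 9 higher, 2 lower and a median of 0.88. Rpl41, the smallest ribosomal protein, had 130 counts in cells and 13652 in vesicles (6.77, 109-fold), and Rpl15 had 101 and 7991 (6.36). Rps29 had 46 and 2192 (5.62), whereas Rpl23a, with 219 and 418 (1.00), was the 1 gene without a small RNA in an exon that was not called. On the other side, Rpl13, with a small RNA in an exon, had 12093 and 1424 (-3.02) and Rpl7a, likewise, 4577 and 572 (-2.93). Over all 160 protein-coding genes with a small RNA in an exon, 91 were higher and 32 lower (median 1.80), against 4947 and 335 of 5844 without one (median 2.51).

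With the minimum of 100 counts the medians of the other mRNA groups lay close to the mRNA median, though at a minimum of 1000 counts the medians of 7 of 13 lists changed from one side of it to the other. The members were chosen by that minimum as described above, and their counts stand beside 83.9% of all tested protein-coding genes called higher. Translation factor mRNAs were 28 higher and 3 lower of 35 (median 2.64). Eif3f, a subunit of initiation factor 3, had 233 and 13573 counts (5.93), mostly on a retained-intron transcript, and Eif4b 134 and 2060 (4.00). Eif4g2, a relative of the scaffold factor eIF4G, had 6330 and 1239 (-2.29), and Eif4a2, which holds a small RNA in an exon, 9274 and 996 (-3.15). Eef1a1, the carrier of aminoacyl-tRNA, had 889 and 8656 (3.35), also with a small RNA in an exon.

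Replication-dependent histone mRNAs, which end in a stem-loop instead of a poly(A) tail, were 44 higher and 3 lower of 49 (median 2.84). Their summed level was 201 CPM in cells and 1129 CPM in vesicles. Hist1h2bg had 20 and 1098 counts (5.81) and Hist2h2aa1 26 and 1197 (5.56). Hist4h4 had 911 and 210 (-2.05), and Hist1h2bq had 131 and none, at least 41.8-fold lower. Histone copies are near-identical in sequence, so a value for 1 copy is uncertain.

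Among macrophage mRNAs of the lysosome and the secretory route, 40 of 41 were higher and none lower (median 2.61), with summed levels of 140 and 1125 CPM. Gpnmb, a lysosomal membrane glycoprotein, had 34 and 2335 counts (6.15) here but 239 and 1126 (2.35) in the shNS pair. The protease gene Ctsc had 51 and 2252 (5.52, and 6.89 under shNS), Lyz2, macrophage lysozyme, 122 and 1364 (3.54), and the protease gene Ctsl 95 and 142 (0.64), within 2-fold. Of 16 tested macrophage markers 15 were higher and none lower (median 2.20), among them Cd14, the lipopolysaccharide co-receptor, with 94 and 3485 counts (5.27). Vesicle biogenesis and cargo mRNAs were 19 higher and 2 lower of 21 (median 2.64). The tetraspanin Cd9 had 50 and 1517 (4.97), the leukocyte integrin Itgb2 32 and 660 (4.41), and the flotillin gene Flot2 180 and 21 (-3.01, but 0.68 under shNS).

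Cytoskeleton and glycolysis mRNAs were 35 higher and none lower of 36 (median 2.75). Tuba1b, an alpha-tubulin, had 100 and 2135 counts (4.47), Ldha, lactate dehydrogenase A, 80 and 1181 (3.94), and Actb, beta-actin, 204 and 1842 (3.24). Hk1, hexokinase 1, had 207 and 164 (-0.27), within 2-fold. NF-kB and inflammatory macrophage mRNAs were 18 higher and none lower of 21 (median 2.67). Cd86, a co-stimulatory receptor, had 5 and 607 (6.85) and Junb, an AP-1 subunit, 117 and 1316 (3.55). Tnf had 242 and 824 (1.83, 1.62 to 2.04), below the mRNA median. Of 27 interferon-stimulated mRNAs 25 were higher and 1 lower (median 2.75). Eif2ak2, the double-stranded RNA sensor PKR, had 25 and 750 counts (4.94), and Ifit1, which binds RNA lacking cap methylation, had 244 and 20 (-3.51).

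RNA decay and tailing mRNAs were 36 higher and 1 lower of 37 (median 2.35), and the 1 lower gene was Dis3l2 (13232 and 1894 counts, -2.74, -2.81 to -2.67). Dcp2, the decapping enzyme, had 155 and 8448 counts (5.83), Usb1, which trims the end of U6 RNA, 3 and 156 (5.55), and Pan3, a subunit of a deadenylase, 75 and 1097 (3.93). Of 15 mRNAs for RNA polymerase III transcription 12 were higher and 2 lower (median 2.07). The polymerase subunit gene Polr3g had 54 and 2759 (5.73). The 2 lower were Snapc3, which encodes a subunit of the complex that binds snRNA promoters, with 15804 and 2231 (-2.76), and Brf1, a TFIIIB subunit, with 598 and 165 (-1.79). Of all protein-coding genes with at least 100 counts in cells, 39.9% were higher and 33.0% lower. Chosen in that way, ribosomal protein mRNAs were 24 higher and 7 lower of 40, translation factors 7 and 3 of 12, histones 6 and 2 of 9, lysosomal mRNAs 7 and 0 of 7, and cytoskeleton and glycolysis mRNAs 9 and 0 of 10. The smaller groups were RNA decay mRNAs with 5 and 1 of 6 and vesicle biogenesis mRNAs with 2 and 2 of 4. NF-kB and inflammatory mRNAs were 3 and 0 of 4, and interferon-stimulated mRNAs 2 and 1 of 3. Polymerase III mRNAs were 0 and 2 of 3.

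**Figure D5:**
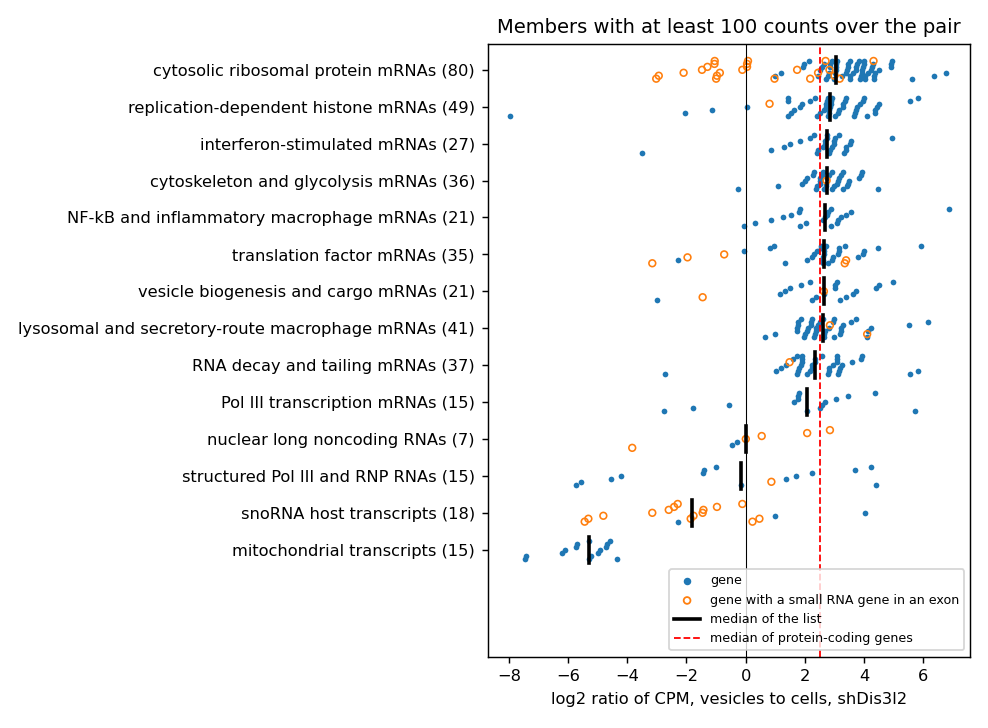
log2 ratio of vesicle to cell CPM in the shDis3l2 pair (x axis) for the tested members of 14 gene lists (y axis, number tested in brackets). Open orange circles are genes with a small RNA gene in an exon, black bars are list medians and the dashed red line is the protein-coding median of 2.50; the medians of the mitochondrial, snoRNA host, structured and nuclear lists lie at 0.01 or below and those of the mRNA lists between 2.07 and 3.06.

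The 8 most abundant protein-coding genes of the vesicles and the 8 of the cells had 2 in common, Lars2 and Luc7l3. In vesicles they were Itfg2 (473 and 82755 counts, 7.51), Chd9 (265 and 62585, 7.95), Lars2 (22862 and 57830, 1.40), Cdc37l1 (583 and 53309, 6.58), Eci2 (150 and 43527, 8.24), Luc7l3 (221024 and 41894, -2.33), Olfr441 (84 and 40241, 8.96) and Cnot3 (636 and 40222, 6.05). Most of the vesicle counts lay on 1 transcript of each gene. That transcript was typed as retained intron for Itfg2 and Cnot3 and as processed transcript for Chd9 and Eci2. The Chd9 transcript shares 131 nt with a member of the repeated family above, and that of Eci2 shares 23 nt with Gm42427. Those of Cnot3 and Olfr441 share 36 nt and, on the opposite strand, 34 nt with the snoRNA Gm22009. Over 5831 nuclear protein-coding genes with no small RNA in an exon, 8.39% shared 20 nt or more with an abundant small RNA or a member of that family, on either strand, with 7.92% of the genes called higher and 9.32% of those called lower.

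In cells, Mcm7 led with 259487 counts, against 26396 in vesicles (-3.23). It encodes a subunit of the replicative helicase, its most abundant transcript retains an intron, and that transcript shares 88 nt with the miRNA hairpin Mir93. Luc7l3, a splicing factor gene, 2010111I01Rik, with a small RNA in an exon (96482 and 11895, -2.96), and Uros, which encodes an enzyme of haem synthesis (47732 and 259, -7.46), came next. Lars2 (22862 and 57830), Mei1 (22561 and 267, -6.33), Macf1, a cytoskeletal linker (18732 and 1965, -3.19), and R3hdm1 (17001 and 2715, -2.58) were also among the most abundant in cells. The noncoding hosts of miRNA clusters fell on the same side, with Mir17hg at 433675 and 63117 (-2.72), A330023F24Rik at 129961 and 12557 (-3.31) and E130102H24Rik at 166721 and 14317 (-3.48). All 3 hold a small RNA in an exon.

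At the extremes, single genes were present in 1 compartment and near absent from the other. Higher in vesicles were Gzma, a granule protease of lymphocytes (1 and 3319 counts), Marco, a macrophage scavenger receptor (5 and 3383, 9.33), Shc4 (5 and 3652, 9.44) and Fam221a (30 and 20150, 9.43, 8.94 to 10.02). The muscle genes Mymk (1 and 2631) and Myh6 (1 and 1199) belonged to the same group. AL732309.1 (none and 1714), Saxo1 (none and 1706), Nt5c1b (none and 1349), Nell2 (none and 563), Gata4 (none and 372) and Socs7 (none and 337) had no count in cells and were at least 597-, 595-, 470-, 196-, 130- and 117-fold higher. With 1 count in cells the ratio is loose: that of Gzma was 11.18, with an interval from 9.28 to 17.07. All 12 were called higher in the shNS pair too, with Fam221a at 8.12 and Marco at 5.48.

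Lower in vesicles were Tlcd2, with a small RNA in an exon (2695 and 1 counts, -10.75), Foxn1 (1093 and 2, -8.71), Ankrd29 (10899 and 33, -8.28), Myo16 (6633 and 22, -8.14), Fgd5 (1469 and 5, -8.00) and Sfta2 (663 and 2, -7.99). Apoc2 (434), Gm7247 (389), Olfr560 (294), Tas2r110 (284), Ffar3 (261) and C9 (208) had counts in cells and none in vesicles, and were at least 138-, 124-, 93.7-, 90.5-, 83.2- and 66.3-fold lower. The shNS pair differed for Apoc2, with 1 count in those cells and 52 in those vesicles, and for Gm7247, with 2 and 1; the other 10 were called lower there too. Ankrd29 was alike in both pairs (-8.62 under shNS). In the Foxn1 transcript 32 nt are shared with the snoRNA Gm22009.

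Among noncoding genes, Gm38019, a processed pseudogene, stood furthest apart on the cell side with 25563 and 9 counts (-11.33, and -12.05 in the shNS pair). The unclassified gene Gm22574, 60 nt long, had 18695 and 70 (-7.99), and 1700021G15Rik, Gm47374, Gm32816, Gm47916 and Gm27177 lay between -9.45 and -7.74. On the vesicle side Gm44044 (3164), the snRNA-typed Gm24261 (2191), Gm18884 (1563), 4930555F03Rik (1465), Gm14334 (1248) and AC123930.1 (962) had no count in cells. They were at least 1103-, 764-, 545-, 511-, 435- and 335-fold higher. 2700033N17Rik (1 and 2483, 10.76), Trbv20 (3 and 5614, 10.71), Gm43604 (2 and 3091, 10.34) and Gm8968 (3 and 3916, 10.19) completed the 10 highest in vesicles. Trbv20 is typed as a T cell receptor variable segment, which is coding. Of these 10 genes, AC123930.1 was not higher in the shNS pair, with 3 and 0 counts.

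Transcript length and base composition were weakly related to the ratio among 5831 nuclear protein-coding genes with no small RNA in an exon (Spearman's rho -0.09 with length and 0.08 with GC content, across genes of 1 pair of libraries). By the type of the most abundant transcript, genes led by a coding transcript had a median of 2.54 (4949 genes), those led by a retained intron 1.92 (621), and those led by a nonsense-mediated decay transcript 2.41 (223).

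Most calls were alike in the pair labelled shNS. Of 6460 genes called in the shDis3l2 pair, 5633 had at least 100 counts over the shNS pair, 5577 had the same sign there, 5310 (94.3%) were called in the same direction and 21 in the opposite one. Background shares there were 77.8% higher and 11.3% lower among 6255 genes measured in both pairs, and 82.8% and 6.04% among the 5234 protein-coding ones. Of the 21 opposite calls, 17 were lower in vesicles here and higher there. Among snRNAs, 13 of 18 measured calls were the same and 2 were opposite, whereas among snoRNAs and scaRNAs 192 of 201 were the same and none opposite.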

How the data were processed

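The 4 libraries hold small RNA, 1 library for cells and 1 for vesicles under each hairpin label. The deposited table gives estimated counts per transcript; per the submitters' processing notes, cutadapt, Salmon and Novoalign were used with GRCm38 and mm10 named, and versions are not given in the sources used here. Of the deposited estimated counts, 6.56% of values above 0 were whole within 0.001; whether reads were collapsed by molecular tags is not given. Of 141239 features, 139791 were named from GENCODE M21, 239 are tRNAs and 8 are repeats. The other 1201 had no name in that release, held 0.0451% and 0.134% of the counts of the cell and vesicle library, and entered totals only.

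Transcripts were summed per gene and rounded. CPM used the total of all features, a pseudocount of 0.5 and exact conditional Clopper-Pearson 95% intervals; genes needed 100 counts over the pair, 2-fold and an interval that excludes 1. Floors were 0.163 and 0.170 CPM (3 counts) in cells and vesicles. Because each group is 1 library, p-values come only from the additive edgeR 4.0.16 quasi-likelihood fit over 4 libraries, an alternative that shares 1 spread among them; DESeq2 1.42.0 was a second one. Both the calls and the fits were tested on simulated counts. The scale, minimum, pseudocount, transcript choice and removal of genes holding a small RNA (202 of 7181) were varied. Setting the protein-coding median to 0 was added after seeing the data.

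Named genes are the 12 coding and 10 other genes with the largest ratio in each direction (at least 10 and 50 CPM in 1 library), the 8 most abundant of each kind per library, up to 6 most abundant members of each of 14 lists and members past 2-fold, and 4 tRNA families per direction. The text gives those of them that its sentences need, and markers. The members and lists were chosen with earlier results of these data known. Shared stretches and motifs were searched by exact match in the GENCODE transcripts. Python 3.11.15 and R 4.3.3 were used.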

Additional observations from a re-analysis of the deposited data

Results flagged for a closer look

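The following 6 values had opposite directions in the pair labelled shDis3l2 and the pair labelled shNS, and in none of them was the difference between pairs tested, since each pair has 1 library a side. Snapc3 had a log2 ratio of vesicles to cells of -2.76 under shDis3l2 and 5.37 under shNS. Dis3l2, whose counts go against the label in cells, was at -2.74 and 5.49. R3hdm1 was at -2.58 and 4.21, with 17001 and 109 counts in the cell libraries. Snhg8, a snoRNA host, was at -1.86 and 2.10. The minor spliceosomal Rnu11 was at -1.02 and 1.67. The tRNA family Pro-AGG, with few counts, was at 1.12 and -2.33.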

How the results depend on the processing

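With 1 library a side, depth limits a gene at 0 to a bound, and calls rest on counting error alone. Counts are given as non-miRNA genes higher and lower, then protein-coding genes higher and lower (as reported: 5650, 810, 5038 and 367). They became 1809, 1823, 1401 and 1234 with TMM factors, 1739, 1900, 1339 and 1309 with DESeq2 factors, 3408, 1258, 2919 and 723 on the protein-coding total, and 1647, 1977, 1257 and 1379 with the protein-coding median set to 0, which was added after seeing the data. On the total without miRNA, 620 protein-coding genes were lower. A minimum of 10 counts gave 11035, 2458, 9285 and 1116, a minimum of 1000 gave 873, 317, 598 and 108, and no minimum gave 11753, 3097, 9578 and 1342; by construction more or fewer genes were tested. The additive edgeR fit called 1413, 1620, 1057 and 1073 and the additive DESeq2 fit 1093, 1378, 790 and 842. The protein-coding median of 2.50 became 0.12 (TMM), 0.075 (DESeq2), 1.29 (without miRNA), 0.95 (protein-coding total), 1.71, 4.57 and 1.49 (minimum of 10, of 1000 and none), 2.33 (pseudocount of 5) and 3.16 (most abundant transcript). Without miRNA in the total, shares in cells and vesicles were 13.4% and 39.6% for tRNA, 23.0% and 29.0% for protein-coding genes, 28.7% and 0.304% for snoRNA, and 4.32% and 3.87% for misc RNA, the class of Y, 7SL and vault RNA.

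Of 138 genes named, 120 kept direction and call with TMM or DESeq2 factors, 111 in the edgeR fit and 138 with a pseudocount of 5. Among them, the ratios called higher that changed sign, in the order TMM, DESeq2, are those of Rny1 (-0.13, -0.18), Rny3 (-0.67, -0.72), Rn7sk (-1.0, -1.05), Tnf (-0.54, -0.59), Lars2 (-0.97, -1.02) and CT010467.1 (-1.01, -1.06). On the protein-coding total Rn7sk was at -0.17, Lars2 at -0.14 and CT010467.1 at -0.18. In the edgeR fit Rn7sk was at -0.53, 4.5S at -0.10, Tnf at -0.82, Lars2 at -1.14 and CT010467.1 at -0.94. TMM, DESeq2 factors and the other totals subtract a constant from every ratio, so uncalled positive ratios and tRNA families below that constant also turn negative. List medians read against the protein-coding median changed side in 7 of 13 lists at a minimum of 1000 counts, 4 of 14 by the most abundant transcript, 3 of 14 with no minimum, 2 of 14 at a minimum of 10 and 1 of 14 without genes holding a small RNA, and in none under other scales or the pseudocount of 5. The additive fits keep the hairpin label as a block, and with 1 library a group no other pairing or leaving out of a library was possible.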
